A study of Mus musculus with 18 samples.

Results

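The 42 genes described here drive the cell division cycle and the copying of DNA. They were chosen by name, from the mouse symbols of a fixed list, and all 42 were found among the 26301 genes of the count table and passed the filter that left 16539 genes for testing. Of them, 17 act at the start of replication or in S phase, 24 act in G2 phase and mitosis, and Ccnd1 encodes the G1 cyclin D1. Mki67, the usual marker of dividing cells, was left out of the list, since 8 of the 18 libraries hold no read of it.

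The libraries come from mouse astrocytes dissected from newborn cortex, grown for about 2 weeks in medium with serum, and moved to N2 medium at confluence. There were 6 groups of 3. Co-cultured astrocytes received dissected hippocampal neurons of TdTomato+ newborn mice and were collected after 2, 4 or 7 days, and astrocytes kept alone were collected after 2, 4 or 7 days. All groups were sorted by TdTomato fluorescence, with the astrocytes alone setting the gate for negative cells. The labels give no strain, no genotype beyond TdTomato+ and no number of animals per culture, and the p-values below measure the spread between these cultures. The 6 libraries of a replicate number carry 1 date in the labels, which gives every co-culture a partner without neurons, and a replicate number here stands for that date. RNA of a bulk sample cannot tell fewer dividing cells from less of a transcript per cell.

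Astrocytes of the newborn brain still divide and keep dividing in serum, and confluence and loss of serum are known to send them towards rest. Cells that commit to division use cyclin D with its kinases to release E2F factors, which switch on the genes for origin licensing, the Mcm helicase and nucleotide supply. Genes for spindle, kinetochore and cytokinesis are switched on later, in G2 phase, and are repressed in resting cells by the DREAM complex, which reads a short promoter element called CHR.

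Depth ran from 3242459 to 32623556 reads a library. Libraries stood apart in 3 cases, and the class medians of days and of co-culture are given with and without them. Replicate 1 of astrocytes alone at day 2 had the lowest depth, and a single gene took 92.5% of its reads, so that 35 of the 42 genes had under 3 reads and 3 reads amounted to 20.2 CPM (reads of a gene scaled to a common library size). In replicate 1 of the day 7 co-culture mt-Rnr2 took 40.5% of the reads and 14 of the genes had under 3 reads, while 15 lay above every one of the 15 other libraries. In replicate 3 of the day 4 co-culture 12 genes had under 3 reads. These 3 are called the sparse libraries below, and the other 15 had at most 3 of the genes under 3 reads. The sums over 10 astrocyte markers ran from 578 to 5825 CPM in the 18 libraries, and the sums over 8 neuronal markers from 8.07 to 265 CPM in co-cultures and from 51.3 to 298 CPM in astrocytes alone.

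What the genes share in sequence is shown first, since the 2 classes differ in it. RefSeq promoter windows (build GRCm38.p6, 250 bases before to 50 bases after the start of transcription) were at hand for 34 of the 42 genes, 14 of the replication class and 20 of the mitosis class. Windows were searched on both strands for the CHR letters TTTGAA or TTCGAA, for the E2F letters TTTGGCGC, TTTCGCGC or TTTCCCGC, and for CCAAT, the NF-Y box. CHR letters were present for 16 of 20 mitosis genes (80.0%) and 2 of 14 replication genes (14.3%), against 19.2% of all 32851 windows. E2F letters were present for 1 of 20 mitosis genes (5.0%) and 7 of 14 replication genes (50%), against 1.84% of all windows. CCAAT was present for 17 of 20 (85.0%) and 9 of 14 (64.3%), against 37.4%. Mcm7, Uhrf1 and Prc1 have a pair of windows each and so had more chances of a match.

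Cdk1 is the 1 mitosis gene with both kinds of letters, and Mcm5 carries a pair of overlapping E2F matches, so the 250 bases before their start are printed in full, with all 3 motifs in capitals, 5′ to 3′ on the strand of the gene.
Cdk1, chr10:69352913-69353162, minus strand: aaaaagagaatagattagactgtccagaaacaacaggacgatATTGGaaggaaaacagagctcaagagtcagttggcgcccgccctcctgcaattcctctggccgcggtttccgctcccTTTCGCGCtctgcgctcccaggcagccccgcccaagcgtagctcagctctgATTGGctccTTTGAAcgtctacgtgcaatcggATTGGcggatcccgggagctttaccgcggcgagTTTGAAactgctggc
Mcm5, chr8:75109259-75109508, plus strand: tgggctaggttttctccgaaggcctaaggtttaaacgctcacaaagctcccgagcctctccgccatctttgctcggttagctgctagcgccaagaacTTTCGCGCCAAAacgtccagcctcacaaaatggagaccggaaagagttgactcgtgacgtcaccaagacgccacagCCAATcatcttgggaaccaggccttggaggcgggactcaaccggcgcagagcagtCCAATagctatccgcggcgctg
For the other genes followed below, 30 bases around the match nearest the start show the CHR letters of the mitosis genes and the E2F letters of the replication genes in capitals, on either strand.
Top2a, chr11:99024195-99024224, minus strand: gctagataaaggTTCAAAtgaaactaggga
Bub1, chr2:127831828-127831857, minus strand: ctgcgcggggaaTTCGAAtcgccggcggcc
Plk1, chr7:122159453-122159482, plus strand: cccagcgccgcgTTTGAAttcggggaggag
Cdc20, chr4:118437344-118437373, minus strand: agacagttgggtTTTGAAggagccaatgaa
Kif11, chr19:37376351-37376380, plus strand: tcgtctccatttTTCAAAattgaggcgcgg
Cenpa, chr5:30666890-30666919, plus strand: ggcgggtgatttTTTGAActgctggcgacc
Uhrf1, chr17:56304117-56304146, plus strand: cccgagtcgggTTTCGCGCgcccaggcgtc
Cdc6, chr11:98908002-98908031, plus strand: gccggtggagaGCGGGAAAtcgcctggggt
The matches of Top2a, Kif11 and Cdc20 lie just upstream of the start, and those of Bub1, Plk1 and Cenpa just downstream of it. Among the genes followed below, Ccnb1 and Birc5 had no CHR letters in their windows, and Mcm2, Pcna, Rrm2, Tyms, Ccne1 and E2f1 had no E2F letters, while Mcm2 and Mcm7 are the 2 replication genes with CHR letters. A match is a run of letters and no measured binding.

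Levels differed widely between the genes. Per kb of exon (GENCODE M21 lengths, which are not the annotation the counts were made with), the median over the 15 fuller libraries was 368 CPM per kb for Ccnd1. It was 7.48 for Rrm1, 6.20 for Mcm7 and 5.28 for Pcna, and 4.16 for Top2a, the decatenating topoisomerase and the highest of the mitosis genes. The lowest were Ube2c, a ubiquitin-conjugating enzyme of the anaphase-promoting complex, at 0.0849 CPM per kb, and Ccnb1, cyclin B1, at 0.292. Ube2c had 166 reads over all libraries and under 3 reads in 7 of them. Whether the counting used the strand is not given, and Mcm7, Gins2, E2f1, Ccne2, Ccna2, Aurka, Kif20a, Nusap1, Prc1 and Cdc20 overlap other genes, while Ccnb1, Ccnb2, Tyms and Pcna have processed pseudogenes, so that reads of these cannot be fully told apart.

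**Figure D1:**
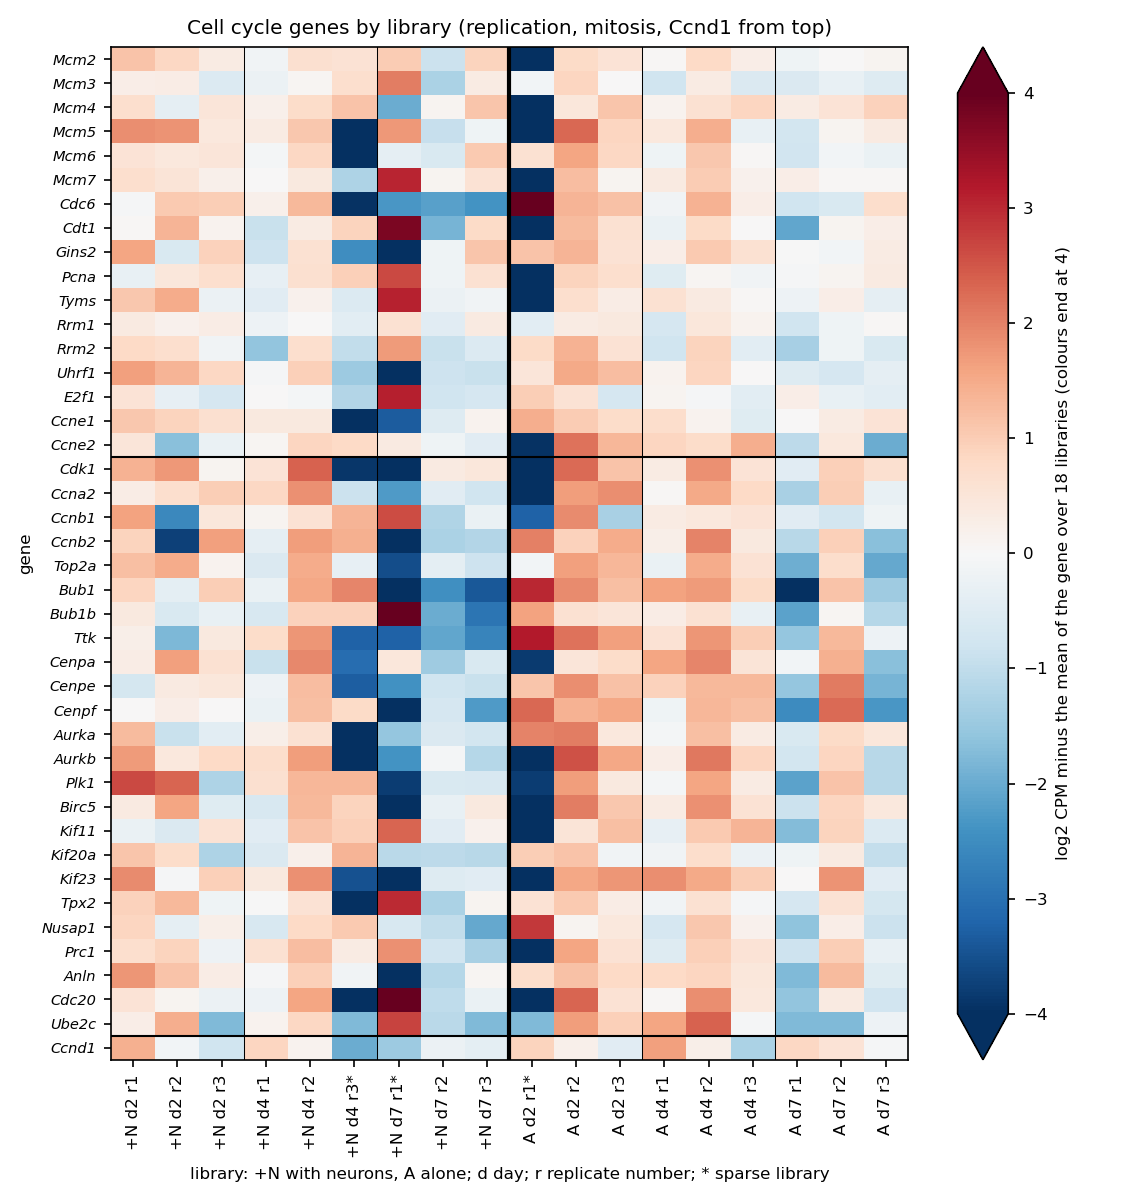
Each cell gives log2 CPM of 1 gene in 1 library minus the mean of that gene over the 18 libraries (red above, blue below, colours end at 4). Co-cultures are left of the thick line and astrocytes alone right of it; the mitosis block is blue in most day 7 libraries and red in most libraries of replicate 2, and the sparse libraries (asterisk) hold isolated extremes of both colours.

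The genes of a class varied together to different degrees. Over the 15 fuller libraries, the log2 level of a mitosis gene correlated with the mean of the other 23 at 0.37 to 0.93 (Pearson's r, median 0.83), and that of a replication gene with the mean of the other 16 at 0.17 to 0.90 (median 0.71). With the mean of the other class the medians were 0.69 for mitosis genes and 0.54 for replication genes, so much of this variation was shared by both classes. The own class correlated better for 19 of 24 mitosis genes and 14 of 17 replication genes. These points share dates and libraries, and the values are descriptions. The median SD across libraries was 1.09 log2 units for mitosis genes and 0.56 for replication genes.

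The question the collection days allow is how both classes changed over the days after the move to N2 medium. No gene of the 42, and no gene of the 16539, passed an adjusted p of 0.05 in edgeR's quasi-likelihood test for any contrast of days or of co-culture (0 genes, 0% in each of 12 contrasts). Over both kinds of culture, day 7 against day 2 gave a median log2 fold change of −1.25 over the mitosis genes, 20 of 24 lower, and of −0.35 over the replication genes, 11 of 17 lower, where 47.7% of all genes tested were fitted lower. At an unadjusted p under 0.05, 12 of the 42 genes were lower and 0 higher, against 2.38% of all genes lower. The smallest p among the 12 belonged to Uhrf1, Bub1 and Top2a (adjusted p = 0.644 for each). In 21 of the 42 genes the mean of both kinds of culture was lower at day 7 in all 3 pairs of the same date, against 10.0% of all genes. The pair of replicate 1 holds both sparse libraries of that date, and 40.1% of all genes were lower in it.

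Of the lists of markers of other cells, 2 were lower over the same days. In the 16 libraries other than the sparse ones of replicate 1, the 6 fibroblast and meninges markers summed to 253 to 484 CPM at day 7 and 492 to 803 at day 2 with neurons, and to 246 to 388 CPM at day 7 and 495 to 518 at day 2 alone. The 8 endothelial and mural markers summed to 65.4 to 69.6 CPM at day 7 and 77.6 to 103 at day 2 with neurons, and to 58.6 to 65.01 CPM at day 7 and 72.2 to 97.9 at day 2 alone. Neither list overlapped between these days in either kind of culture, with 2 or 3 libraries a group. The same held for the 8 housekeeping genes, so this fall was not particular to those 2 lists. With neurons they summed to 1832.6 to 1841.5 CPM at day 7 and 1998.4 to 4294.6 at day 2. Alone they summed to 1496.6 to 1660.5 CPM at day 7 and 2002.7 to 2893.9 at day 2. The neuronal, neural progenitor, oligodendrocyte lineage, microglia and ependymal lists overlapped between these days in both kinds of culture. Alone, the progenitor markers reached higher sums at day 7, 921 to 1359 CPM against 652 to 1012 at day 2. The sparse library of astrocytes alone at day 2 had 376 CPM of the fibroblast list, from 56 reads, inside the range of day 7. The part of such cells in the day 7 levels of the 42 genes was not tested.

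Without the 3 sparse libraries and with the replicate number as a block, an alternative chosen after seeing the data, 24 of 24 mitosis genes and 16 of 17 replication genes were lower (median −1.44 and −0.77, all genes 0.05). Then 25 of the 42 genes were lower at an unadjusted p under 0.05 and 0 higher, against 4.02% of all genes lower, and 0 of the 42 passed the adjusted threshold (smallest adjusted p = 0.0565, Uhrf1, edgeR). DESeq2 on all 18 libraries passed 1 of the 42, Uhrf1 (log2 fold change −2.22, adjusted p = 0.0161), among 0.0544% of all genes. limma-voom with library quality weights passed 0 of the 42, with 21 lower and 0 higher at an unadjusted p under 0.05. Counts at an unadjusted p without a share of all genes beside them, here and below, are not read as a result.

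The replication class is described by role, starting with the helicase that opens origins. All values are in the order of replicates 1, 2 and 3. Mcm2, a subunit of the Mcm2-7 helicase, stood at 19.9, 16.02 and 11.3 CPM at day 2, 8.17, 14.1 and 13.3 at day 4 and 18.3, 4.86 and 16.7 at day 7 with neurons. Alone, Mcm2 had 0, 15.5 and 13.3 CPM, 9.26, 15.7 and 10.7 and 7.96, 8.99 and 9.67 at the same days. Alone, the 3 day 7 values lay below both fuller day 2 values, while with neurons the days overlapped. Mcm5, another subunit, had 18.1, 17.2 and 6.66 CPM at day 2, 6.25, 10.4 and 0.119 at day 4 and 16.6, 2.53 and 4.31 at day 7 with neurons. Alone, Mcm5 had 0, 24.4 and 9.06 CPM, 6.57, 13.6 and 3.94 and 2.90, 5.29 and 6.32 at the same days. Without the sparse libraries, Mcm5 at day 7 lay below day 2 in both kinds of culture, and its log2 fold change over both kinds was −1.73 (SE 0.43, unadjusted p = 0.0012, adjusted p = 0.220, edgeR with 15 libraries and the block). For Mcm4 and Mcm7 the same fit gave 0.09 and −0.30, with SEs of 0.25 and 0.24, so the subunits of 1 complex were not fitted alike. Mcm3 and Mcm6 lay between, at −0.56 (SE 0.35) and −0.82 (SE 0.34).

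Cdc6, which loads that helicase on origins, had 1.14, 2.51 and 2.42 CPM at day 2, 1.36, 3.003 and 0 at day 4 and 0.168, 0.198 and 0.157 at day 7 with neurons. Alone, Cdc6 had 20.2, 3.17 and 2.77 CPM, 1.07, 3.19 and 1.42 and 0.639, 0.749 and 1.96 at the same days. The fuller day 7 co-cultures stood at 0.198 and 0.157 CPM, below every one of the other fuller libraries. The sparse day 7 co-culture held 0.168 CPM, where 3 reads amount to 0.504 CPM. The sparse day 2 value of astrocytes alone rests on 3 reads. Day 7 against day 2 was −3.76 (SE 0.88) with neurons and −1.03 (SE 0.73) alone in log2 with 15 libraries and the block, and the difference between these effects was −2.72 (SE 1.13, adjusted p = 1, edgeR). Cdt1 and Gins2, which also act in licensing and helicase activation, were at −1.04 (SE 0.56) and −0.64 (SE 0.48) over both kinds of culture.

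Pcna, the sliding clamp of the replicating polymerases, had 6.09, 10.3 and 12.1 CPM at day 2, 6.03, 11.7 and 14.6 at day 4 and 47.2, 6.59 and 11.6 at day 7 with neurons. Alone, Pcna had 0, 13.9 and 11.98 CPM, 5.32, 7.91 and 6.78 and 7.20, 8.02 and 9.62 at the same days. Its days overlapped with neurons, and alone day 7 lay below the fuller day 2 libraries. Rrm2, the S phase subunit of ribonucleotide reductase, had 20.7, 18.9 and 10.9 CPM at day 2, 3.94, 18.9 and 5.90 at day 4 and 38.8, 6.42 and 8.04 at day 7 with neurons. Alone, Rrm2 had 20.2, 31.6 and 17.6 CPM, 6.81, 22.1 and 8.89 and 4.71, 10.5 and 7.73 at the same days. Without the sparse libraries all day 7 values of Rrm2 lay below all day 2 values in both kinds of culture. The log2 fold change over both kinds was −1.43 (SE 0.35, adjusted p = 0.220) with 15 libraries and the block and −0.78 (SE 0.50, adjusted p = 0.750) with all 18. Its partner subunit Rrm1, which cells also hold outside S phase, was at −0.46 (SE 0.22).

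Tyms, thymidylate synthase, had 10.1, 13.5 and 4.01 CPM at day 2, 3.41, 5.33 and 3.22 at day 4 and 40.7, 3.96 and 4.27 at day 7 with neurons. Alone, Tyms had 0, 7.52 and 5.84 CPM, 7.24, 6.01 and 4.86 and 4.07, 5.67 and 3.66 at the same days. Its days overlapped with neurons. Uhrf1, which brings the maintenance methyltransferase to newly copied DNA, had 14.9, 12.4 and 8.45 CPM at day 2, 4.54, 9.32 and 1.67 at day 4 and 0.168, 2.63 and 2.51 at day 7 with neurons. Alone, Uhrf1 had 6.72, 13.7 and 11.4 CPM, 5.28, 8.74 and 4.77 and 3.31, 2.94 and 3.69 at the same days. Apart from the sparse libraries, Uhrf1 at day 7 was at 2.51 to 3.69 CPM and at day 2 at 8.45 to 14.9 CPM, with no overlap, in either kind of culture. With the sparse libraries included, its group means were 1.77 ± 1.39 CPM at day 7 and 11.9 ± 3.25 at day 2 with neurons, and 3.31 ± 0.373 at day 7 and 10.6 ± 3.56 at day 2 alone (SD, n = 3 each). In log2 this was −2.24 (SE 0.54, adjusted p = 0.644, edgeR) with all 18 libraries and −2.02 (SE 0.31, adjusted p = 0.0565) with 15 and the block, and both were the smallest p of the 42.

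Ccne1, cyclin E1, which drives entry into S phase, had 5.18, 4.52 and 3.77 CPM at day 2, 3.15, 3.18 and 0.0596 at day 4 and 0.168, 1.66 and 2.67 at day 7 with neurons. Alone, Ccne1 had 6.72, 4.88 and 4.01 CPM, 3.91, 2.63 and 1.70 and 2.44, 2.995 and 3.53 at the same days. Day 7 lay below day 2 in the fuller libraries of each kind. E2f1, an activating factor of the S phase genes, had 14.7, 8.06 and 6.38 CPM at day 2, 10.3, 9.64 and 4.41 at day 4 and 87.2, 5.77 and 6.27 at day 7 with neurons. Alone, E2f1 had 20.2, 15.1 and 6.37 CPM, 10.9, 9.90 and 7.52 and 12.1, 8.18 and 7.58 at the same days. The co-culture value of 87.2 CPM in the sparse library rests on 519 reads, and its replicates held 5.77 and 6.27 CPM. Alone the days of E2f1 overlapped. Over both kinds of culture E2f1 was at 0.68 (SE 0.57) in log2 with all 18 libraries and at −0.36 (SE 0.26) with 15 and the block. These fits differ in 3 libraries and in the block. Ccne2, cyclin E2, was at −1.33 (SE 0.65) in the second fit, from −2.51 (SE 0.91) alone and −0.15 (SE 0.96) with neurons.

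The mitosis class opens with the kinase and cyclins of entry into mitosis. Cdk1, the mitotic kinase, had 7.70, 9.80 and 3.09 CPM at day 2, 4.26, 15.2 and 0.119 at day 4 and 0, 3.74 and 3.96 at day 7 with neurons. Alone, Cdk1 had 0, 14.2 and 6.40 CPM, 3.60, 10.5 and 4.22 and 2.09, 5.62 and 4.56 at the same days. With neurons the fuller day 7 values of Cdk1 lay inside the range of day 2, and alone they lay below it. Ccna2, cyclin A2, had 4.35, 5.595 and 7.06 CPM at day 2, 6.25, 12.6 and 1.91 at day 4 and 0.672, 2.53 and 2.00 at day 7 with neurons. Alone, Ccna2 had 0, 11.3 and 12.8 CPM, 3.60, 10.1 and 6.10 and 1.39, 6.95 and 2.86 at the same days. Its fuller day 7 values lay below the fuller day 2 values in both kinds of culture (−1.61, SE 0.33, adjusted p = 0.208, edgeR with 15 libraries and the block). Ccnb1, cyclin B1, had 2.21, 0.0448 and 0.952 CPM at day 2, 0.726, 1.03 and 1.85 at day 4 and 4.54, 0.248 and 0.549 at day 7 with neurons. Alone, Ccnb1 had 0, 2.72 and 0.225 CPM, 0.855, 0.930 and 1.01 and 0.465, 0.374 and 0.593 at the same days. The days overlapped in both kinds of culture, and 452 reads over all libraries stand behind these values. Ccnb2, cyclin B2, was at −1.96 (SE 0.88) in the same fit.

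Top2a had 33.6, 40.4 and 15.9 CPM at day 2, 9.62, 41.1 and 11.51 at day 4 and 1.18, 11.1 and 8.196 at day 7 with neurons. Alone, Top2a had 13.4, 46.0 and 36.5 CPM, 11.97, 41.0 and 21.7 and 3.66, 23.9 and 3.48 at the same days. The 3 lowest of the fuller libraries were astrocytes alone at day 7, replicates 1 and 3, and the co-culture of replicate 3 at day 7. Replicate 2 alone at day 7 held 23.9 CPM, inside the range of day 4. Over both kinds of culture Top2a was at −1.93 (SE 0.59, adjusted p = 0.644) with all 18 libraries and −2.05 (SE 0.38, adjusted p = 0.174) with 15 and the block.

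Bub1, a kinase of the spindle checkpoint, had 2.99, 1.21 and 3.21 CPM at day 2, 1.32, 4.80 and 6.44 at day 4 and 0, 0.223 and 0.0784 at day 7 with neurons. Alone, Bub1 had 13.4, 6.14 and 3.78 CPM, 5.04, 5.38 and 2.75 and 0, 3.64 and 0.541 at the same days. The day 7 co-cultures stood at 0 to 0.223 CPM, and alone 1 of 3 day 7 libraries kept 3.64 CPM. The library at 0 of astrocytes alone allows up to 0.174 CPM, and the sparse co-culture at 0 up to 0.504 CPM. In log2, day 7 against day 2 was −4.27 (SE 1.34, adjusted p = 0.271, edgeR) with neurons and −2.22 (SE 1.25, adjusted p = 1) alone with all 18 libraries. DESeq2 passed Bub1 and Uhrf1 with neurons (−4.27, adjusted p = 0.0363, and −2.63, adjusted p = 0.0196), among 1.50% of all genes. Bub1b and Ttk, checkpoint kinases too, were at −2.02 (SE 0.47) and −2.63 (SE 0.80) over both kinds with 15 libraries and the block.

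Aurkb, the kinase of the chromosomal passenger complex, had 4.15, 1.66 and 2.18 CPM at day 2, 2.02, 4.03 and 0 at day 4 and 0.168, 1.14 and 0.510 at day 7 with neurons. Alone, Aurkb had 0, 7.55 and 3.75 CPM, 1.47, 5.55 and 2.29 and 0.697, 2.30 and 0.516 at the same days. Its fuller day 7 values lay below day 2 in both kinds of culture. Birc5, survivin, of the same complex, had 2.57, 6.09 and 1.39 CPM at day 2, 1.23, 5.02 and 3.76 at day 4 and 0, 1.59 and 2.63 at day 7 with neurons. Alone, Birc5 had 0, 8.47 and 4.23 CPM, 2.505, 7.18 and 2.98 and 1.05, 3.69 and 2.71 at the same days. Its days overlapped with neurons. Plk1, a kinase of spindle assembly and mitotic exit, had 6.81, 5.46 and 0.397 CPM at day 2, 1.67, 2.69 and 2.74 at day 4 and 0, 0.644 and 0.627 at day 7 with neurons. Alone, Plk1 had 0, 3.48 and 1.39 CPM, 0.977, 3.22 and 1.33 and 0.174, 2.35 and 0.438 at the same days. Replicate 3 of the day 2 co-culture held 0.397 CPM of Plk1 and replicates 1 and 2 held 6.81 and 5.46, so day 2 overlapped with day 7. Aurka, which builds the spindle poles, was at −0.99 (SE 0.59) and its activator Tpx2 at −0.96 (SE 0.36) over both kinds of culture, with 15 libraries and the block.

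Kif11, the motor that separates spindle poles, had 3.71, 2.999 and 6.66 CPM at day 2, 3.25, 10.00 and 8.71 at day 4 and 22.9, 3.25 and 5.06 at day 7 with neurons. Alone, Kif11 had 0, 6.45 and 10.4 CPM, 3.54, 9.27 and 11.6 and 1.28, 8.29 and 3.02 at the same days. Its days overlapped in both kinds of culture. Cenpa, the histone H3 variant of centromeres, had 1.33, 3.54 and 1.67 CPM at day 2, 0.536, 4.26 and 0.0596 at day 4 and 1.51, 0.347 and 0.667 at day 7 with neurons. Alone, Cenpa had 0, 1.54 and 1.84 CPM, 3.39, 4.35 and 1.56 and 0.988, 2.995 and 0.284 at the same days. Replicate 2 alone at day 7 was the exception that kept the days overlapping without neurons. The kinetochore genes Cenpe and Cenpf were at −1.17 (SE 0.53) and −1.72 (SE 0.66) in the fit of both kinds with 15 libraries and the block. The cytokinesis genes Kif20a, Kif23, Prc1 and Anln were at −1.05 (SE 0.35), −1.34 (SE 0.51), −1.32 (SE 0.31) and −1.22 (SE 0.47), and Nusap1, which bundles spindle microtubules, at −1.51 (SE 0.48).

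Cdc20, the activator of the anaphase-promoting complex, had 3.57, 2.60 and 2.02 CPM at day 2, 2.11, 7.44 and 0.0596 at day 4 and 102, 1.16 and 2.00 at day 7 with neurons. Alone, Cdc20 had 0, 12.3 and 3.67 CPM, 2.505, 8.97 and 3.30 and 0.755, 3.10 and 1.39 at the same days. The value of 102 CPM rests on 605 reads in the sparse library. With all 18 libraries, day 7 against day 2 was 0.84 (SE 0.94) over both kinds of culture, and −1.44 (SE 0.49) with 15 and the block. Ube2c was at −2.99 (SE 1.38) in the second fit.

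**Figure D2:**
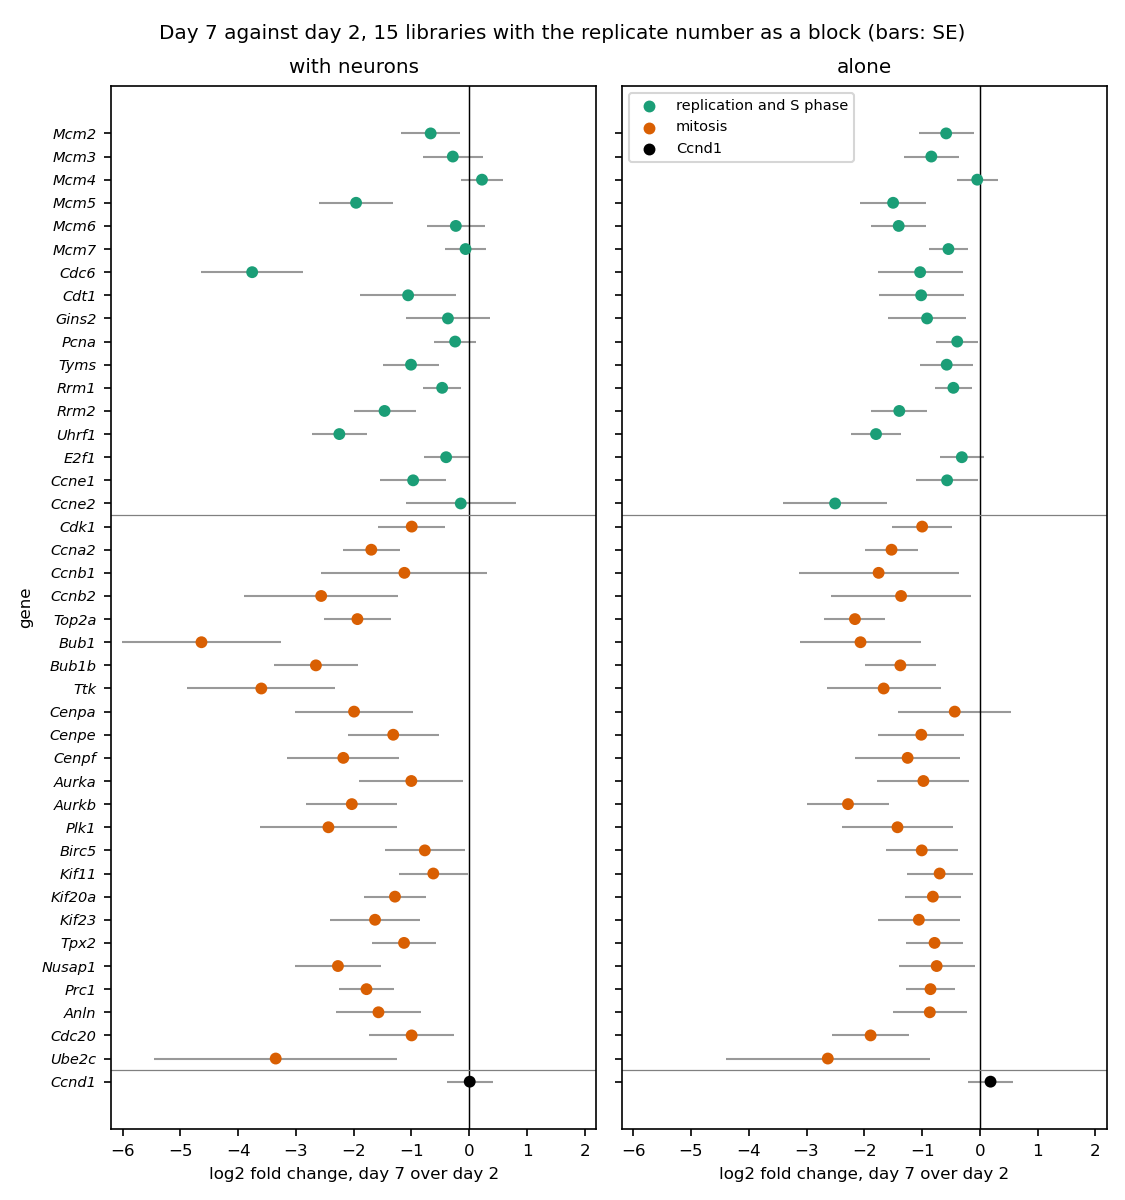
Log2 fold change of each of the 42 genes at day 7 over day 2 in co-cultures (left) and in astrocytes alone (right), with bars for 1 SE, fitted on 15 libraries with the replicate number as a block. All 24 mitosis genes lie left of 0 in both panels, and Ccnd1 lies near 0 in both.

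The fits were also split by kind of culture. With 15 libraries and the block, 24 of 24 mitosis genes were fitted lower at day 7 than at day 2 with neurons (median −1.74; 45.3% of all genes lower) and 24 of 24 alone (median −1.15; 45.9% of all genes lower). The replication class was at −0.47 (16 of 17 lower) with neurons and −0.84 (17 of 17 lower) alone. With all 18 libraries the mitosis medians were −1.46 (17 of 24 lower) and −1.21 (24 of 24 lower), and the replication medians −0.03 (9 of 17 lower) and −0.87 (16 of 17 lower). The replication median with neurons turns to 0.07 with median-ratio scaling. Pair by pair, 16, 20 and 18 of 24 mitosis genes were lower at day 7 with neurons and 12, 16 and 22 alone for replicates 1 to 3. The pair of replicate 1 holds a sparse library in each kind of culture. In that pair 54.6% of all genes were lower with neurons and 31.2% alone. Lower in all 3 pairs were 10 of 24 mitosis genes with neurons, and 14 of the 42 in all, against 14.4% of all genes, and 6 of 24 alone, also 14 of the 42, against 7.57%. Without 1 library, the mitosis median alone ran from −2.28 (without replicate 2 at day 7) to −0.75 (without replicate 2 at day 2). None of the 42 passed the adjusted threshold in either fit and kind (edgeR), with 3 higher and 8 lower at an unadjusted p under 0.05 with neurons and 0 higher and 4 lower alone, all 18 libraries. voom also passed 0 in both kinds, with 0 higher and 6 lower at that level with neurons and 0 higher and 15 lower alone, and DESeq2 passed 0 alone, with 0 higher and 6 lower. Shares of all genes at that level are not set beside these counts, so the counts cannot tell whether the 42 stand out from all genes.

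The contrast of day 7 against day 4 in astrocytes alone uses none of the sparse libraries for its means. There 24 of 24 mitosis genes were fitted lower (median −0.90; 55.6% of all genes lower), and the replication class stood at −0.44 (14 of 17 lower). In 17 of 24 mitosis genes and 9 of 17 replication genes, 26 of the 42 in all, log2 CPM was lower at day 7 in all 3 pairs, against 12.2% of all genes. The pair medians of the mitosis class were −1.52, −0.53 and −1.13 for replicates 1 to 3. Cenpe, Cenpf, Kif23, Prc1 and Anln were higher at day 7 in replicate 2 and lower in both others. The smallest p of this contrast belonged to Ube2c, Ccne2 and Top2a (log2 fold changes −3.56, −1.66 and −1.27, with SEs of 1.95, 0.95 and 0.81, adjusted p = 1 for each), and 0 of the 42 had an unadjusted p under 0.05 with edgeR or with DESeq2, against 12 with voom. The share of all genes at that level with voom is not given, so the 12 are not read as a result. Without replicate 2 at day 7, the mitosis median was −1.88, and without replicate 2 at day 4 it was −0.47.

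With neurons, day 7 against day 4 gave mitosis medians of −1.33 (18 of 24 lower) with all 18 libraries and −1.60 (24 of 24 lower; 49.7% of all genes) with 15 and the block, and replication medians of 0.46 (5 of 17 lower) and −0.25 (14 of 17 lower). The mitosis median was −0.55 without the day 4 co-culture of replicate 2, and the replication median ran from −0.34 without all of replicate 1 to 1.46 without all of replicate 2. For mitosis genes the fit with 15 libraries gave 24 of 24 lower alone (median −0.93; 47.7% of all genes), with a replication median of −0.40. Of the 3 genes with the smallest p, Bub1 and Ttk were lower (−5.02, SE 1.38, and −4.27, SE 1.52), and Mcm7 was higher (1.99, SE 0.70), at an adjusted p of 0.431 for each of them. Leaving out the sparse day 7 library put Mcm7 at 0.50. For day 4 against day 2 the mitosis medians were 0.03 (11 of 24 lower) with neurons and −0.49 (20 of 24 lower) alone, and the replication medians −0.47 and −0.55. With 15 libraries and the block, the mitosis medians were −0.12 and −0.34 and the replication medians −0.41 and −0.37. Without the day 4 co-culture of replicate 2 the mitosis median with neurons was −0.70, and 0.34 without that of replicate 1. Alone it ran from −0.86 without replicate 2 at day 4 to −0.035 without replicate 2 at day 2. Uhrf1, Tyms and Mcm5 had the smallest p with neurons (−1.20, −1.21 and −1.33, with SEs of 0.73, 0.78 and 1.002) and Cdc6, Rrm2 and Uhrf1 alone (−1.76, −0.91 and −0.87, with SEs of 1.32, 0.73 and 0.75), at adjusted p = 1 for all.

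**Figure D3:**
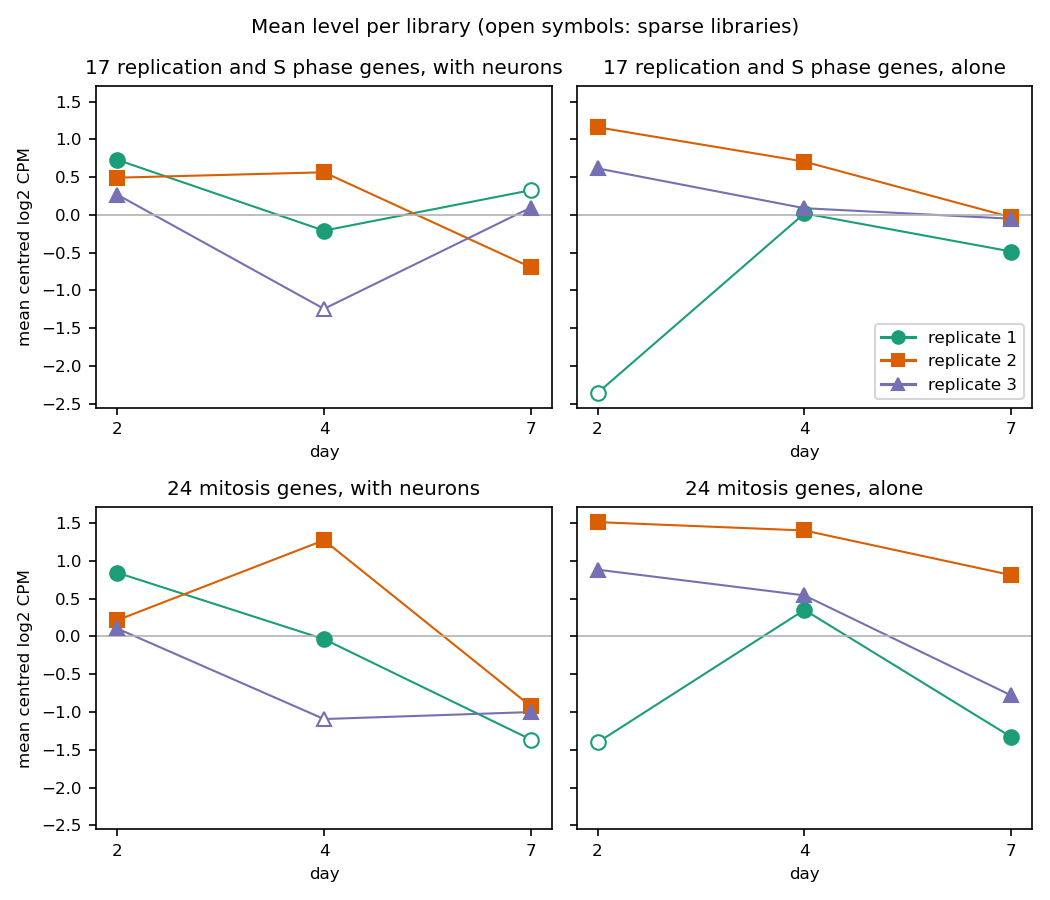
Mean over the genes of a class of log2 CPM minus the mean of the gene, per library, against the day, for 17 replication genes (top) and 24 mitosis genes (bottom), with neurons (left) and alone (right); lines join libraries of a replicate number and open symbols mark the sparse libraries. The mitosis means at day 7 lie between −1.36 and −0.78 except for replicate 2 alone at 0.81, while the replication means at day 7 stay between −0.69 and 0.33.

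A mean over each class in each library sets the 2 classes side by side. The replication mean minus the mitosis mean was −0.11, 0.28 and 0.16 log2 units at day 2, −0.17, −0.71 and −0.15 at day 4 and 1.69, 0.23 and 1.10 at day 7 with neurons. Alone it was −0.95, −0.35 and −0.27 at day 2, −0.33, −0.70 and −0.45 at day 4 and 0.85, −0.84 and 0.73 at day 7. Thus 5 of 6 day 7 libraries had relatively more replication than mitosis transcripts than the average library, and replicate 2 of astrocytes alone did not. The 5 include the sparse co-culture of replicate 1. The day 7 co-culture of replicate 2, at 0.23, was not above its day 2 value of 0.28. Replicates 2 and 3 of the day 2 co-cultures were above the average library too. The summed CPM of the replication class divided by that of the mitosis class was 1.29, 1.26 and 1.65 at day 2, 1.49, 0.908 and 1.26 at day 4 and 1.71, 1.93 and 3.23 at day 7 with neurons. Alone it was 0.826, 1.17 and 1.15 at day 2, 1.25, 1.05 and 1.13 at day 4 and 2.92, 0.773 and 2.79 at day 7. The ratio compares libraries, not the levels of the classes, since it ignores transcript length.

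The series asks what contact with neurons changes in astrocytes. On average over the 3 days, co-culture gave a median log2 fold change of −0.42 over the mitosis genes (16 of 24 lower) and 0.10 over the replication genes (7 of 17 lower), where 47.4% of all genes were lower. With 15 libraries and the block, 23 of 24 mitosis genes (median −0.50) and 13 of 17 replication genes (median −0.13) were lower, where 54.8% of all genes were. The mitosis median with 18 libraries ran from −0.71 without the day 4 co-culture of replicate 2 to −0.16 without replicate 2 of the day 7 cultures alone. The replication median ran from −0.36 without all of replicate 1 to 0.28 without all of replicate 2. In 13 of the 42 genes the average over days was lower in all 3 pairs, against 15.5% of all genes. The replication median turns to −0.06 with upper-quartile scaling, a setting that moves the all-gene median of these contrasts by as much as 0.15. No gene of the 42 passed the adjusted threshold with edgeR, DESeq2 or voom, and 5 with edgeR, 5 with DESeq2 and 1 with voom were lower at an unadjusted p under 0.05, with 0 higher. No share of all genes at that level stands beside these counts.

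The smallest p belonged to Ttk, Cenpf and Cenpe (−2.21, −1.45 and −1.45, with SEs of 0.80, 0.60 and 0.61, adjusted p = 0.982 for each). With replicate 2 of the day 7 cultures without neurons left out, Cenpf was at −0.34, Cenpe at −0.62 and Ttk at −1.84. Pair by pair, the mitosis median of the average was 0.41, −0.77 and −0.65 for replicates 1 to 3, and replicate 1 holds both a sparse co-culture and a sparse library of astrocytes alone.

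At day 2 the mitosis median was −0.68 with all 18 libraries (20 of 24 lower) and −0.49 with 15 and the block (19 of 24 lower), and the replication medians were −0.15 and −0.17. Without replicate 2 of the day 2 cultures alone, the mitosis median was −0.24 and the replication median 0.038. The pair medians of the mitosis class were 1.68, −1.04 and −0.81 for replicates 1 to 3, and the sparse library of astrocytes alone belongs to the first pair. Ccne2, Ttk and Cenpf had the smallest p (−1.89, −2.45 and −1.59, with SEs of 0.98, 1.42 and 1.08, adjusted p = 1). At day 4 the medians were −0.25 for mitosis and −0.36 for replication with all 18 libraries, and −0.22 and −0.051 with 15 and the block. Without replicate 2 of the day 4 cultures alone they were 0.078 and −0.016, and without the day 4 co-culture of replicate 2 −0.79 and −0.76. Gins2, Pcna and Mcm7 had the smallest p (−1.11, 0.69 and −0.70, with SEs of 1.02, 0.66 and 0.67, adjusted p = 1.00).

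At day 7 the values turned on single libraries. With all 18, Cdc20 and Bub1b were higher in co-culture (4.31, SE 1.47, and 3.29, SE 1.22) and Bub1 lower (−3.43, SE 1.30), at an adjusted p of 0.468 for each. Without the sparse co-culture library, Cdc20 was at −0.16 and Bub1b at −1.69. Bub1b had 5.73, 2.82 and 3.57 CPM at day 2, 2.78, 8.29 and 8.29 at day 4 and 72.8, 1.04 and 0.510 at day 7 with neurons. Alone, Bub1b had 13.4, 6.76 and 6.14 CPM, 5.38, 6.75 and 3.53 and 0.930, 4.65 and 1.93 at the same days. The value of 72.8 CPM rests on 433 reads in the sparse library, and the other day 7 co-cultures held 1.04 and 0.510 CPM, which overlaps with the 0.930 to 4.65 CPM of astrocytes alone. With all 18 libraries 17 of 24 mitosis genes were lower in co-culture at day 7 (median −0.84; 49.8% of all genes lower), and the replication median was 0.58, with 5 of 17 lower. That replication median ran from −0.13 without all of replicate 1 to 1.08 without all of replicate 2. With 15 libraries and the block 23 of 24 mitosis genes were lower in co-culture at day 7 (median −1.002; 52.8% of all genes lower), and the replication median was −0.08. The pair medians were −0.93, −1.59 and −0.03, and leaving out replicate 2 of astrocytes alone turned the mitosis median of the 18-library fit to 0.22. The difference of the co-culture effect between day 7 and day 2 had, in edgeR, DESeq2 and voom, 2, 4 and 1 of the 42 higher and 0 lower at an unadjusted p under 0.05. No share of all genes stands beside these counts, so they are not read as a result. None of the 42 passed the adjusted threshold for this difference with any of these tools. Cdc20, Bub1b and Mcm3 had its smallest p (5.65, 4.17 and 1.77, with SEs of 1.97, 1.70 and 0.88, adjusted p = 0.891 for each), and Bub1b was at −1.04 once both sparse replicate 1 libraries were dropped. Without the sparse day 7 co-culture, Cdc20 was at 1.15 and Mcm3 at 0.57, and with 15 libraries and the block at 0.89 (SE 1.004) and 0.56 (SE 0.72).

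Markers of other cells were read in the day 7 library of replicate 2 without neurons, which kept high mitosis levels. Its 12 microglia and macrophage markers summed to 213 CPM with none at 0, against 6.22 and 11.01 CPM in replicates 1 and 3, where 6 and 3 markers were at 0. The co-culture of the same date and day had the larger sum, 414 CPM, and a mitosis mean of −0.92, against 0.81 alone. In the library without neurons the 8 oligodendrocyte lineage markers summed to 403 CPM, against 109 and 266 CPM in replicates 1 and 3. The 8 progenitor markers there summed to 1076 CPM, against 921 and 1359 CPM. The part of such cells in the result was not tested.

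With edgeR, genes of the list, like all genes tested, passed only between culture dates, among the contrasts run on all 18 libraries. Of the 42, 1 passed for replicate 2 against 1, 1 for replicate 3 against 1 and 0 for replicate 3 against 2. This is no marked excess over the shares of all genes given below. With the group means held, replicate 2 against replicate 1 passed Top2a (log2 fold change 1.81, SE 0.43, adjusted p = 0.0378, edgeR), among 242 genes or 1.46% of those tested. The mitosis class was higher in replicate 2 for 20 of 24 genes (median 0.91; 46.0% of all genes fitted lower) and the replication class for 13 of 17 (median 0.23). Birc5 and Cenpf came next (1.88, SE 0.67, and 1.97, SE 0.72, adjusted p = 0.240 and 0.266). Against replicate 3, replicate 2 was again high, as 22 of 24 mitosis genes were lower in replicate 3 than in replicate 2 (median −0.96; 53.3% of all genes lower), with a replication median of −0.38. In that contrast 0 of the 42 passed and 2 were lower at an unadjusted p under 0.05, among 652 genes or 3.94% that passed (Top2a −1.22, SE 0.41, adjusted p = 0.115; Ccnd1 −0.85, SE 0.38, adjusted p = 0.303; Rrm2 −0.94, SE 0.46, adjusted p = 0.377). Top2a stood at 11.1 to 46.0 CPM in replicate 2 and at 3.48 to 36.5 CPM in replicate 3.

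Ccnd1 had 3358, 1155 and 716 CPM at day 2, 2238, 1375 and 311 at day 4 and 454, 1047 and 948 at day 7 with neurons. Alone, Ccnd1 had 2306, 1436 and 914 CPM, 3905, 1461 and 517 and 2207, 1837 and 1193 at the same days. Apart from the sparse libraries, Ccnd1 held 2207 to 3905 CPM in replicate 1, above all of replicates 2 (1047 to 1837 CPM) and 3 (517 to 1193 CPM), which overlapped with each other. Replicate 3 against replicate 1 passed Ccnd1 (log2 fold change −1.60, SE 0.40, adjusted p = 0.0324, edgeR), among 599 genes or 3.62%. E2f1 (−1.62, SE 0.48, adjusted p = 0.0662) and Mcm4 (1.03, SE 0.42, adjusted p = 0.200) followed. Over the days Ccnd1 was at 0.10 (SE 0.27) for day 7 against day 2 and for co-culture on average at −0.25 (SE 0.22), with 15 libraries and the block. The mitosis median between replicates 3 and 1 was −0.19.

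Both calls depended on the libraries. With both sparse replicate 1 libraries dropped, 0 of the 42 passed for replicate 2 against 1 (smallest adjusted p = 0.0883). Top2a also failed when any of 11 single libraries was left out, at log2 fold changes between 1.51 and 2.28 over all 18 such fits. Those were replicate 1 of all groups but the day 2 and day 7 co-cultures, replicate 2 of all groups but astrocytes alone at day 2, and replicate 3 of both day 4 groups. Ccnd1 passed without the sparse libraries of replicate 1 and without all 3 sparse libraries (adjusted p = 0.00166 and 0.00616), and was lost without any single day 2 or day 4 library of replicates 1 and 3, and without the day 4 library of replicate 2 kept alone. Its log2 fold change stayed between −1.93 and −1.36 over the 18 fits, and it also failed with all of replicate 2 left out. DESeq2 passed Top2a, Birc5 and Cenpf for replicate 2 against 1 (4.63% of all genes), Ccnd1, E2f1 and Mcm4 for replicate 3 against 1 (10.9%) and Top2a for replicate 3 against 2 (8.05%). voom passed 9 genes for replicate 2 against 1 (6.57% of all genes), with Ccnd1 lower and Top2a, Rrm2, Birc5, Kif11, Cenpf, Prc1, Cdk1 and Ccna2 higher. It passed Ccnd1, Kif11, E2f1 and Mcm4 for replicate 3 against 1 (13.5%) and Ccnd1, Top2a, Kif20a, Mcm5 and Rrm2 for replicate 3 against 2 (12.4%).

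**Figure D4:**
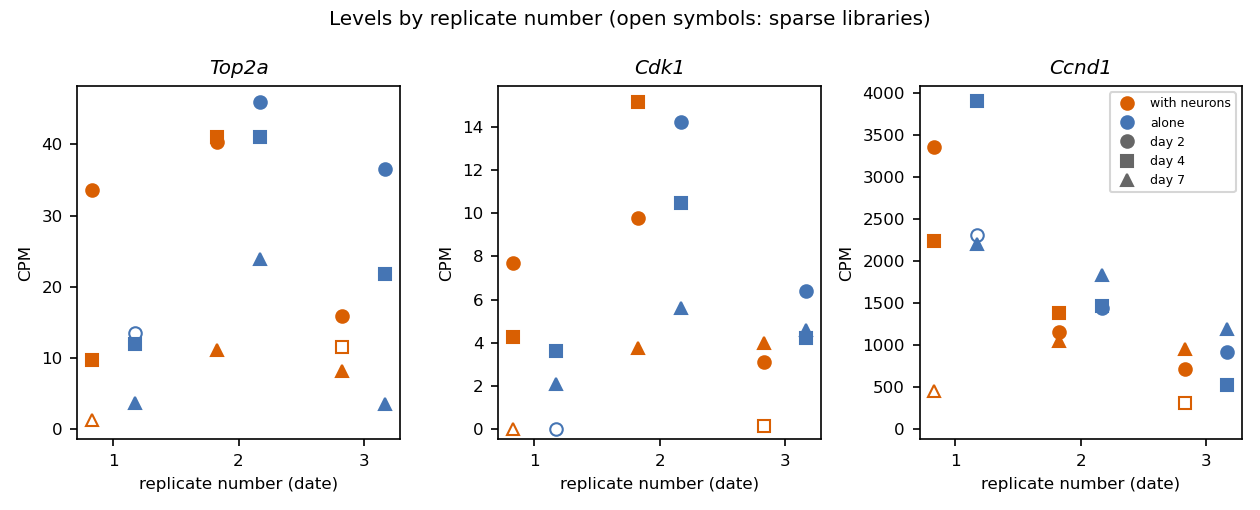
CPM of Top2a, Cdk1 and Ccnd1 in each library by replicate number, with co-cultures (orange) left of astrocytes alone (blue) and the day by symbol; open symbols mark the sparse libraries. Top2a and Cdk1 reach their highest values in replicate 2, and Ccnd1 is highest in replicate 1 apart from the sparse libraries.

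Markers of cell types moved with the dates as well. In the 16 libraries other than the sparse ones of replicate 1, the 10 astrocyte markers summed to 4307 to 5825 CPM in replicate 3, 2169 to 2695 in replicate 2 and 1018 to 2048 in replicate 1, with no overlap. The 12 microglia and macrophage markers summed to 4.27 to 17.8 CPM in replicate 3, 105 to 414 in replicate 2 and 6.22 to 65.2 in replicate 1. The part of these differences in the levels of Top2a and Ccnd1 was not tested.

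Other genes of the same pathways, from lists written with the results of these data known, are counted next. Of 48 other mitosis genes 43 were lower at day 7 than at day 2 over both kinds of culture (median −1.002), and of 39 other replication genes 24 were (median −0.11). With 15 libraries and the block the counts were 43 (median −1.09) and 29 (median −0.49). None passed, and Kif2c, Dlgap5 and Cdc25c had the smallest p of the mitosis list (−3.36, −2.47 and −3.40, with SEs of 1.02, 0.80 and 1.12, adjusted p = 0.644). Mcm8, Clspn and Brca1 had those of the replication list (1.77, −1.98 and −1.47, with SEs of 0.85, 0.98 and 0.74, adjusted p = 0.661 to 0.664). For co-culture on average, 40 of 48 other mitosis genes (median −0.48) and 22 of 39 other replication genes (median −0.12) were lower. Pttg1, Aspm and Cdc25c (0.99, −1.01 and −1.52, with SEs of 0.41, 0.50 and 0.85) and Fen1, Clspn and Rfc5 (1.18, −1.68 and 0.73, with SEs of 0.54, 0.78 and 0.45) had the smallest p, at adjusted p = 0.982.

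Foxm1, a factor that switches on mitosis genes, had 8.44, 7.25 and 7.57 CPM at day 2, 4.64, 8.25 and 3.28 at day 4 and 0, 1.54 and 4.39 at day 7 with neurons. Alone, Foxm1 had 0, 9.37 and 6.70 CPM, 5.32, 9.24 and 4.45 and 3.02, 5.29 and 3.07 at the same days. Day 7 lay below day 2 in the fuller libraries of both kinds (−1.21, SE 0.37, adjusted p = 0.343, edgeR with 15 libraries and the block). Of 25 CDKs, D cyclins and brakes, 10 were lower and the median was 0.11 for day 7 against day 2, and 9 were lower with a median of 0.16 for co-culture on average. The brakes Cdkn1a, p21, and Cdkn1b, p27, were at 0.16 (SE 0.24) and 0.34 (SE 0.16) for day 7 against day 2 with 15 libraries and the block, and at 0.18 (SE 0.19) and 0.09 (SE 0.14) for co-culture on average. Ccnd2, cyclin D2, was at 0.23 (SE 0.22) and −0.20 (SE 0.18). None of these 4 genes passed. E2f8, Cdk2 and E2f5 had the smallest p over days (−2.65, −1.02 and 1.31, with SEs of 0.93, 0.40 and 0.53, adjusted p = 0.644), and Btg1, E2f8 and E2f5 for co-culture (0.87, −1.44 and 0.73, with SEs of 0.37, 0.73 and 0.42, adjusted p = 0.982). Of 8 housekeeping genes, the 3 with the smallest p over days were Hprt at 1.04 (SE 0.40), Actb at −0.78 (SE 0.31) and Tbp at 0.79 (SE 0.35), with adjusted p = 0.644 to 0.657. The sum over all 8 was lower at day 7 than at day 2 in the libraries compared above. For co-culture on average, Rplp0 was at 0.67 (SE 0.33) and Eef2 at 0.44 (SE 0.24), with adjusted p = 0.982 for both.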

How the data were processed

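Astrocytes kept with or without neurons were profiled by RNA sequencing, 3 libraries for each of 6 groups. Per the labels' protocols, RiboGone and SMARTer low-input kits were used with Illumina sequencing. The authors deposited raw read counts per gene, made with Subread and featureCounts against build mm9 per the submitters' processing notes; no versions and no strand setting are given in these sources. The table also holds 17 columns that were not used. Genes were named through RefSeq, and mm9 and GRCm38 coordinates were not mixed: all coordinates come from the RefSeq promoter table.

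R 4.3.3 and edgeR 4.0.16 were used (TMM scaling, filterByExpr by group, quasi-likelihood F test, Benjamini-Hochberg adjusted p under 0.05) on 6 group means over 18 libraries, with the replicate number added for contrasts of dates. The median biological coefficient of variation was 0.569. CPM are TMM-scaled, and class means use log2 CPM with a prior count of 2. DESeq2 1.42.0 and limma 3.58.1 were alternatives, with other scalings, filters, thresholds and left-out libraries. The procedure was tested on simulated data. SEs and p-values cover the spread between libraries, and the level of 3 reads covers counting error only.

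The labels date all 6 libraries of a number alike, so the numbers pair the samples. Residuals around group means had correlations of 0.108 to 0.469 within a number and day and of −0.386 to 0.0781 across numbers, and each of the 18 libraries lay nearest to another of its number. No libraries of a group agreed within sampling noise (lowest chi-square per degree of freedom 116). The block is an alternative. The 42 genes and all lists were chosen with earlier results of these data known. Genes were named by a rule: values in every library for genes picked by role, the 3 smallest p per contrast, every gene that passed, and up to 3 genes of each other list. Values of Bub1b in every library were added after they were seen.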

Additional observations from a re-analysis of the deposited data

Results flagged for a closer look

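Mcm7, a helicase subunit, was lower in co-culture in all 3 pairs at day 4 (mean of the pair differences −0.79 in log2 CPM) and higher in all 3 pairs at day 7 (mean 1.12). The pairs of replicates 1 to 3 differed by −0.35, −0.64 and −1.39 at day 4 and by 2.77, 0.06 and 0.52 at day 7. The difference between these days was not tested. The largest values of both days belong to sparse co-culture libraries. No other gene of the 42 had 3 pairs one way under one condition and 3 the other way under the other condition set against it.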

How the results depend on the processing

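Under the other scalings, filters, tools and left-out libraries, 1440 values of medians and counts moved by no more than the spread between pairs or 1.5 times a count, some medians near 0 with a change of sign, and 62 moved further. Of the values for single genes 1371 kept their direction and side of the threshold, 19 reversed, 24 lost the threshold and 20 gained it. Where a value changed, the cause was not tested. With the replicate number as a block on all 18 libraries, 0 of the 42 genes passed in any contrast of days or co-culture, and the mitosis median of day 7 against day 2 was −1.28. Without the 3 sparse libraries and with that block, the replication median was −0.051 for co-culture at day 4 and −0.37 for day 4 against day 2 alone. With voom the mitosis median was −1.41 for day 7 against day 4 alone and −1.52 for day 7 against day 2 over both kinds. With a term for libraries lacking Mki67 reads, the mitosis median of the difference between co-culture effects was −1.63, against −0.29 in the main fit. Left-out libraries moved that main value between −0.76 and 0.70. The replication median of that difference was 1.20 in the main fit and 0.18 without all of replicate 1. DESeq2 passed 2 genes for day 7 against day 2 with neurons and 1 over both kinds.

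For co-culture at day 7, Cdc20 turned to −0.19 without 2 libraries, −0.19 without 3 and −0.10 without 3 with the block, and Bub1b to −1.72, −1.72, −1.79 (2, block), −1.77 (3, block) and −1.11 (voom). In the difference of co-culture effects Bub1b turned to −1.04, −1.04, −1.36, −1.28 and −0.37 in the same order. For replicate 2 against 1, 0 genes passed with the Mki67 term, 0 without 2 and 0 without 3 libraries, 3 with DESeq2 and 9 with voom. Every library of replicate 2 lacks Mki67 reads, and every library of replicate 1 has some. The Mki67 term thus nearly coincides with this contrast, so the fit with that term cannot decide whether Top2a differs between these dates. For replicate 3 against 1, 3 passed with DESeq2, 4 with voom and 2 at an adjusted p under 0.1, and for replicate 3 against 2, 2 without 2 libraries, 1 with DESeq2 and 5 with voom.

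Leaving out 1 library or 1 replicate number at a time gave these ranges. For co-culture, the replication median at day 4 ran from −0.76 to −0.016, the mitosis median at day 4 from −0.79 to 0.078 and at day 7 from −1.25 to 0.22, Cdc20 at day 7 from −0.56 to 5.48 and Bub1b from −2.12 to 4.56. Bub1b in the difference of effects ran from −1.10 to 5.41. The replication median of day 4 against day 2 ran from −0.97 to −0.35 with neurons and from −0.77 to −0.10 alone, and that of day 7 against day 4 alone from −0.57 to −0.11. The mitosis median ran from −1.88 to −0.47 for day 7 against day 4 alone, from −2.28 to −0.75 for day 7 against day 2 alone and from −1.66 to −0.98 over both kinds. Between 0 and 1 genes passed for replicate 2 against 1, 0 to 1 for 3 against 1 and 0 to 2 for 3 against 2. In the library where 1 gene took 92.5% of the reads, 3 reads amount to 20.2 CPM, which limits what it shows of low genes.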
